A study of Homo sapiens with 6 samples.

Results

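The interferon system was measured here through 48 genes of A549, a long-established line of human lung adenocarcinoma cells. The genes were chosen by symbol, as sensors of double-stranded RNA, receptor subunits and transcription factors of interferon signalling, and interferon-stimulated effectors. All 48 symbols were found among the 57781 rows of the count table. Of these genes, 7 are sensors or act directly on them, 7 are receptor subunits or transcription factors, and 34 are effectors.

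RNA was sequenced from 3 libraries of vector-control cells, labelled as wild type, and 3 libraries of cells in which METTL3 was knocked down by short hairpin RNA, called shMETTL3 here as in the sample titles. METTL3 is the catalytic subunit of the complex that writes N6-methyladenosine (m6A) on mRNA, and the comparison gives the level of each gene with and without its depletion. All cells were kept in the same medium with fetal bovine serum, and no interferon or virus is named in the labels. The labels name no hairpin in the control and do not say how many hairpins were used or whether the libraries came from separate cultures, so the p-values measure only the spread between these libraries, which may be technical. Loss of METTL3 and the presence of a hairpin RNA fall on the same libraries and cannot be told apart.

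Double-stranded RNA in the cytosol is bound by helicases such as RIG-I and MDA5, which signal through MAVS to IRF3 and IRF7 and so start transcription of interferon genes. Secreted type I interferon binds IFNAR1 and IFNAR2, and activated STAT proteins with IRF9 bind the interferon-stimulated response element (ISRE) in the promoters of effector genes. These effectors degrade viral RNA, block its translation or entry, or attach the ubiquitin-like protein ISG15 to other proteins.

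Library totals ran from 14931426 to 19108928 counts, so that 3 counts in a library, taken as the floor, correspond to 0.15 to 0.189 CPM, the counts of a gene per 1e6 counts of the library. All CPM values are scaled by edgeR's TMM method. METTL3 itself was at 49.4, 50.6 and 49.5 CPM with the vector and at 18.9, 19.9 and 19.3 CPM after knockdown, which leaves 38.8%. As for the cell type, the summed level of 5 epithelial markers (EPCAM, CDH1, KRT8, KRT18 and KRT19) was 8980 to 9590 CPM in the vector and 3930 to 4320 CPM in the shMETTL3 libraries, and all 5 were lower in the latter. In bulk RNA, fewer cells of a type and less RNA per cell cannot be told apart. Of 4 genes known to be high in A549, 3 were lower and AKR1C1 was higher. For markers of other cell types, the low summed level of each list was higher in each shMETTL3 library than in any vector library, and of the single markers ITGAM, COL1A1 and CDH5 were called higher. CDH5 had 0, 0 and 2 counts against 30, 28 and 30 counts, at least 9.12-fold higher against the floor. The 6 leukocyte markers summed to 0.446 to 0.599 CPM in the vector and 1.35 to 1.83 CPM in the shMETTL3 libraries, with CD3E at 0 throughout. The 5 fibroblast markers summed to 6.46 to 9.87 CPM and 14.1 to 14.7 CPM, and the 3 endothelial markers to 0 to 0.123 CPM and 1.4 to 1.95 CPM, with VWF at 0 throughout. The part of these markers in the changes below was not tested.

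Of the 48 genes, 42 had enough counts to be tested, and 29 of these were called changed at an adjusted p under 0.05 from edgeR's quasi-likelihood test, 19 higher and 10 lower in the shMETTL3 libraries. Across all 15125 genes tested, 66.6% were called changed, 33.7% higher and 32.9% lower. The share of the tested interferon genes that was called, 69%, lies near that background. Their median log2 fold change was 0.25, against 0.0022 over all genes. The median absolute log2 fold change was 0.45 for these genes and 0.41 for all genes. With scaling by library size alone, which moves the median of all genes by 0.17, the median of the 42 genes was 0.43. That scaling called 25 of them higher and 6 lower, and of all genes 6750 higher and 3509 lower. In 31 of the 42 genes the groups were apart, where 69.4% of all tested genes did not overlap. Of the tested genes, 7 passed the count filter only with the help of the shMETTL3 libraries, namely IFNAR2, OASL, MX1, IFITM1, IFI27, IFI44 and BST2. Among the other 35, 14 were higher and 10 lower, with a median log2 fold change of 0.18.

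Among the 6 tested sensors, 2 were higher and 2 lower, with log2 fold changes between -0.75 and 0.36. Of the 7 receptors and transcription factors, 1 was higher and 3 were lower, between -0.67 and 0.999. Among the 29 tested effectors, 16 were higher and 5 lower, between -1.91 and 3.50. Without the 6 effectors that passed the filter only with the shMETTL3 libraries, 23 were tested, of which 11 were higher and 5 lower, up to 2.13. A log2 fold change of at least 1 in either direction, with an adjusted p under 0.05, was seen for 12 genes, all of them effectors, 10 higher and 2 lower. Of the effectors that passed the filter in the vector libraries alone, 6 rose and 2 fell by that much. Over all tested genes, 10.2% rose and 7.42% fell by that much. The OAS enzymes, which also sense double-stranded RNA, are counted as effectors here. IRF1, at 0.999, lies just under the cut of 1 and ran from 0.90 to 1.17 over the alternatives. The differences between the roles themselves were not tested.

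**Figure D1:**
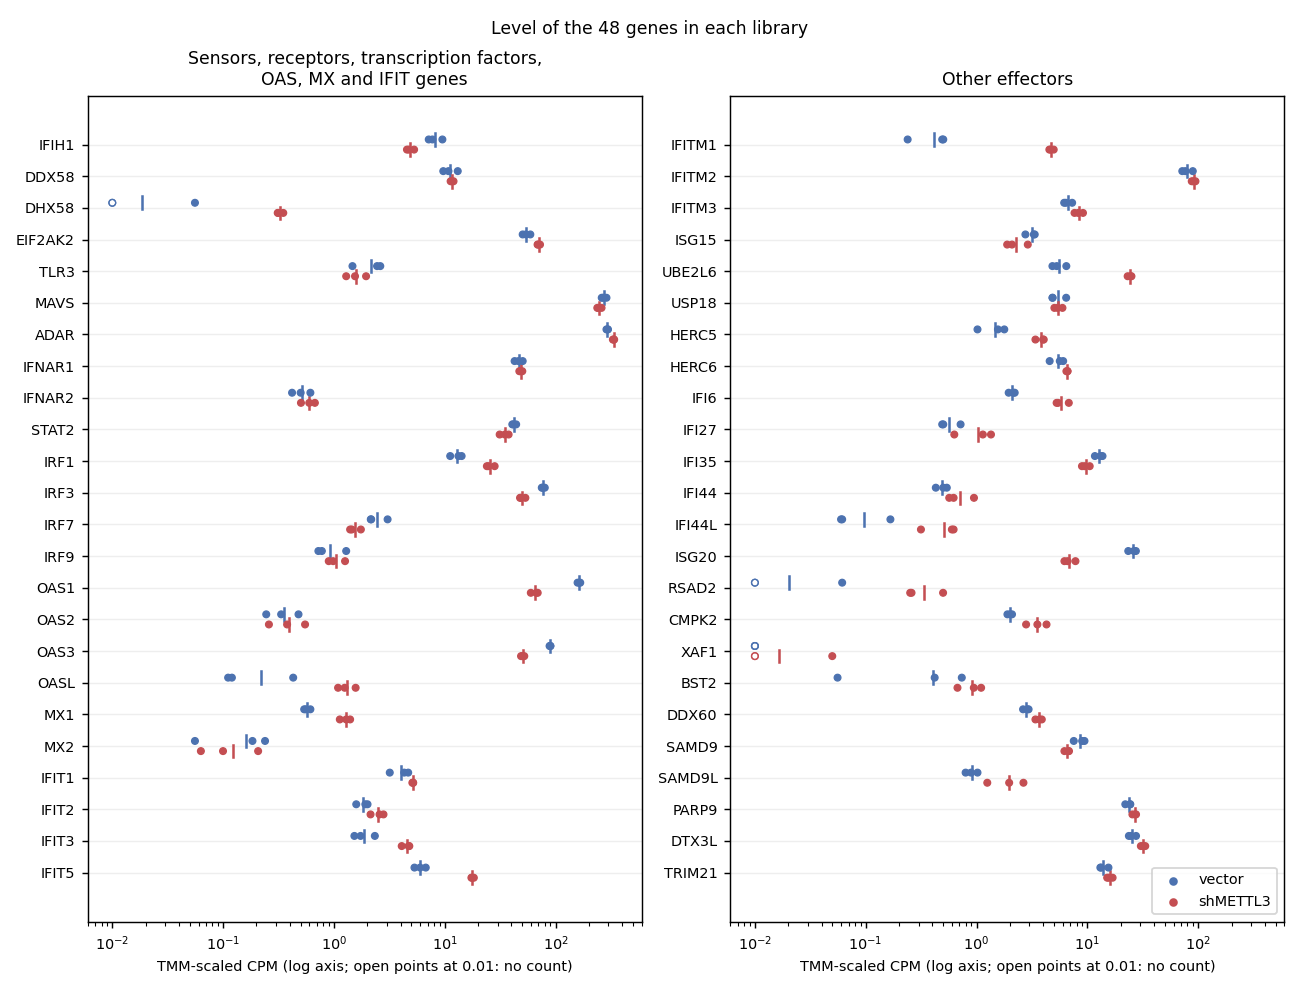
TMM-scaled CPM (log axis) of each of the 48 genes in the 3 vector (blue) and 3 shMETTL3 (red) libraries, with a tick at each group's mean. Open points drawn at 0.01 have no count. IFITM1, UBE2L6 and IFIT5 lie to the right in all shMETTL3 libraries, and OAS1, OAS3 and ISG20 to the left.

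Of the sensors, IFIH1 and MAVS fell and EIF2AK2 and ADAR rose, all by less than 1 on the log2 scale. IFIH1 (MDA5), which binds long double-stranded RNA, was at 7.74, 9.52 and 7.17 CPM in the vector libraries and at 4.56, 4.74 and 5.29 CPM in the shMETTL3 libraries. Each shMETTL3 library was below each vector library, with a log2 fold change of -0.75 (standard error 0.14, adjusted p = 3.53e-05). DDX58 (RIG-I), which binds short RNA with a 5′ triphosphate, was at 13.1, 9.70 and 10.8 CPM against 11.6, 11.3 and 12.0 CPM. Its groups overlapped, and the 95% interval of the log2 fold change ran from -0.18 to 0.27 (adjusted p = 0.734). Its count is uncertain, since 96.6% of the 50-base words of its main transcript occur in other annotated genes, mostly in 1 that overlaps it on the same strand. DHX58 (LGP2), a regulator of both, had 1, 0 and 0 counts with the vector against 6, 7 and 5 after knockdown, at least 1.84-fold higher against the floor of 3 counts per library. It did not pass the filter, and without any filter its adjusted p was 0.00431, where 36.8% of all genes with a count were called.

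EIF2AK2 (PKR), the kinase that halts translation when it binds double-stranded RNA, was at 59.2, 54.0 and 50.5 CPM in the vector and at 69.5, 72.4 and 68.8 CPM in the shMETTL3 libraries. The groups did not overlap, and EIF2AK2 rose by 0.36 on the log2 scale (standard error 0.061, adjusted p = 8.33e-06). ADAR, which edits adenosine to inosine in double-stranded RNA and so keeps cellular RNA from being sensed, was at 297, 288 and 295 CPM against 334, 329 and 338 CPM, and rose by 0.19 (standard error 0.048, adjusted p = 0.00119). MAVS, the mitochondrial adaptor of the RIG-I-like helicases, was at 268, 261 and 288 CPM against 238, 260 and 243 CPM. Its log2 fold change of -0.14 (adjusted p = 0.0195) passed the threshold, but it turned to 0.033 when only library size was used for scaling, and the call was lost without shMETTL3 replicate 1 or 3. TLR3, the endosomal sensor, was at 2.62, 2.45 and 1.47 CPM against 1.29, 1.55 and 1.95 CPM, with overlapping groups (adjusted p = 0.108). The summed level of the 7 genes was 625 to 653 CPM in the vector and 659 to 679 CPM in the shMETTL3 libraries, most of it from ADAR and MAVS.

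The receptor subunits did not pass the test. IFNAR1 was at 50.5, 46.3 and 42.7 CPM in the vector and at 48.2, 47.1 and 50.1 CPM in the shMETTL3 libraries, with a 95% interval of the log2 fold change from -0.077 to 0.19 (adjusted p = 0.447). IFNAR2 had 7 to 10 counts in the vector and 8 to 13 in the shMETTL3 libraries, too few to show any but a large change. In the GENCODE annotation of GRCh37, 47.5% of the 50-base words of its main transcript also occur in other annotated genes, mostly the read-through gene IFNAR2-IL10RB, and its count is uncertain for that reason.

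The transcription factors split, with IRF1 higher and IRF3, IRF7 and STAT2 lower. IRF1, which activates many interferon-stimulated genes on its own, was at 11.2, 13.3 and 14.2 CPM in the vector libraries and at 24, 28.2 and 24.8 CPM in the shMETTL3 libraries. That is a 1.99-fold rise, with a log2 fold change of 0.999 (standard error 0.093, adjusted p = 2.92e-10). The antisense gene IRF1-AS1 overlaps 22.9% of the exonic bases of IRF1, and whether counting used the strand is not given in the sources used here.

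IRF3, the factor that MAVS signalling activates first, was at 75.1, 76.2 and 79.9 CPM against 48.5, 47.8 and 53.4 CPM. It fell by 0.63 on the log2 scale (standard error 0.059, adjusted p = 3.48e-10), with no overlap between groups. BCL2L12 on the opposite strand overlaps 19.3% of its exonic bases. IRF7, which amplifies interferon transcription, was at 2.17, 3.05 and 2.15 CPM against 1.4, 1.75 and 1.45 CPM and fell by 0.67 (standard error 0.24, adjusted p = 0.0142). This call was lost without vector replicate 2 (adjusted p up to 0.107 over the alternatives), without shMETTL3 replicate 1, and with scaling by library size alone.

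STAT2, a part of the complex that reads the ISRE, was at 40.7, 41.6 and 44.1 CPM in the vector and at 31.3, 34.9 and 37.7 CPM in the shMETTL3 libraries. It fell by 0.29 (standard error 0.070, adjusted p = 0.000799), and the call was lost with scaling by library size alone. IRF9, the DNA-binding part of that complex, was at 0.724, 0.778 and 1.29 CPM against 0.984, 0.898 and 1.26 CPM, with overlapping groups (adjusted p = 0.676). Its low count is uncertain, since 92.8% of the 50-base words of its main transcript occur in other annotated genes, mostly in 1 that overlaps it on the same strand.

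**Figure D2:**
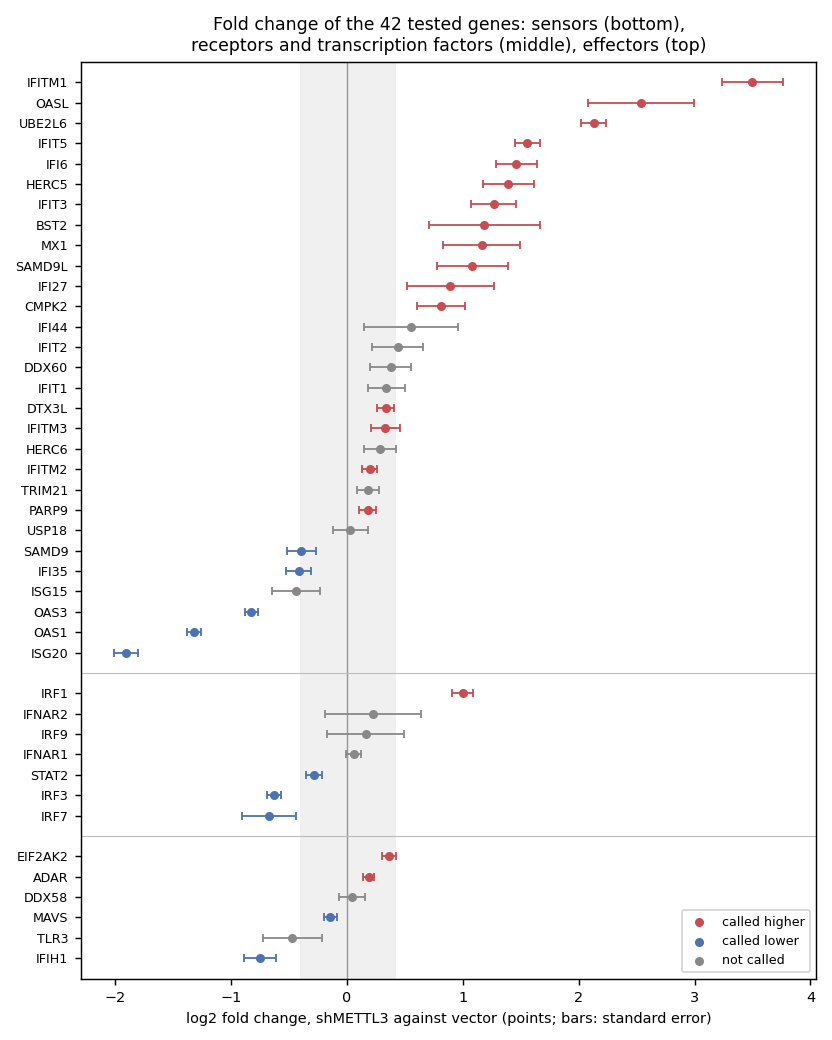
Log2 fold change of the 42 tested genes, shMETTL3 against vector, with bars of 1 standard error, grouped into sensors (bottom), receptors and transcription factors (middle) and effectors (top). Red genes were called higher, blue lower and grey were not called. The line is the median of all 15125 tested genes and the shaded band runs between their lower and upper quartiles, -0.40 to 0.41, and 12 effectors lie beyond 1 or -1.

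Among the effectors, the largest rises were of IFITM1, OASL, UBE2L6, IFIT5 and IFI6, and the largest falls of ISG20, OAS1 and OAS3. The enzymes of the OAS family sense double-stranded RNA and make a short signalling RNA. OAS1 was at 164, 158 and 167 CPM in the vector and at 59.8, 69.0 and 67.1 CPM in the shMETTL3 libraries, a fall to 40% of the vector level (log2 fold change -1.32, standard error 0.057, adjusted p = 2.58e-17). OAS3 was at 89.8, 88.3 and 89.8 CPM against 50.2, 48.8 and 52.2 CPM and fell by 0.83 (standard error 0.055, adjusted p = 3.28e-13).

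Both lie well apart from their controls in every library. OAS2, which sits beside them on chromosome 12, had 4 to 8 counts in the vector and 5 to 11 in the shMETTL3 libraries and was not tested. OASL, which does not make that short RNA and lies elsewhere on the chromosome, had 2, 2 and 7 counts with the vector against 21, 25 and 25 after knockdown. It rose by 2.54 on the log2 scale (standard error 0.46, adjusted p = 1.81e-05), and this value ran from 2.21 to 3.40 over the alternatives, with the highest value without vector replicate 3, which holds most of the vector counts.

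The IFIT proteins bind viral RNA and hold it from the ribosome, and the 4 IFIT genes stand in a row on chromosome 10. IFIT5 was at 6.74, 5.99 and 5.33 CPM in the vector and at 18.3, 17.6 and 17.4 CPM in the shMETTL3 libraries, a 2.95-fold rise (log2 fold change 1.56, standard error 0.11, adjusted p = 6.55e-13). IFIT3 was at 2.34, 1.74 and 1.53 CPM against 4.09, 4.79 and 4.72 CPM and rose by 1.26 on the log2 scale (standard error 0.20, adjusted p = 2.31e-06).

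Their neighbours missed the threshold. IFIT1 was at 4.68, 4.31 and 3.19 CPM against 5.18, 5.19 and 5.10 CPM (log2 fold change 0.34, adjusted p = 0.0613). IFIT2 was at 2.01, 1.92 and 1.59 CPM against 2.80, 2.14 and 2.58 CPM (0.44, adjusted p = 0.0795), and passed with library size alone. The groups did not overlap for either gene, and IFIT1 passed under 4 of 14 alternatives.

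The IFITM proteins sit in membranes and block the entry of viruses. IFITM1 had 9, 4 and 8 counts with the vector against 96, 91 and 74 after knockdown, or 0.501, 0.239 and 0.490 CPM against 4.97, 4.54 and 4.66 CPM. This 11.5-fold rise was the largest of the tested genes of the list, with a log2 fold change of 3.50 (standard error 0.27, adjusted p = 4.26e-12). IFITM2, by far the most abundant of the family, was at 71.9, 76.6 and 89.4 CPM against 87.5, 90.3 and 94.5 CPM. Its groups overlapped, and its log2 fold change was 0.19 (adjusted p = 0.00949), a call lost without vector replicate 1 or shMETTL3 replicate 3.

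IFITM3 was at 6.18, 6.4 and 7.29 CPM against 7.66, 8.28 and 9.13 CPM, with a log2 fold change of 0.33 (adjusted p = 0.0231). The call was lost with DESeq2 and without vector replicate 1 or 2 or shMETTL3 replicate 3. Of the 50-base words of the main transcripts, 55.1% of IFITM1, 12% of IFITM2 and 20.8% of IFITM3 occur in other annotated genes, for IFITM1 and IFITM2 mostly in an annotated gene that overlaps both, and for IFITM3 in IFITM1. How the counting treated such reads is not known.

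In the ISG15 system, UBE2L6 and HERC5 rose, while ISG15 itself did not pass the test. UBE2L6, the enzyme that hands ISG15 on to its ligases, was at 5.29, 6.46 and 4.84 CPM in the vector and at 23.1, 24.6 and 25 CPM in the shMETTL3 libraries. It rose 4.38-fold, by 2.13 on the log2 scale (standard error 0.10, adjusted p = 4.39e-16). HERC5, the main human ISG15 ligase, was at 1.56, 1.02 and 1.78 CPM against 3.99, 4.04 and 3.40 CPM and rose by 1.39 (standard error 0.22, adjusted p = 2.62e-06).

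The related HERC6 was at 4.57, 6.05 and 5.64 CPM against 6.47, 6.63 and 6.61 CPM, without overlap and with an adjusted p of 0.0748, which passed the threshold without vector replicate 2 and with library size alone. ISG15 was at 3.29, 3.35 and 2.76 CPM against 2.90, 2.09 and 1.89 CPM, with overlapping groups and a log2 fold change of -0.44 (adjusted p = 0.0606). It passed the threshold, as a fall, without vector replicate 3 and without shMETTL3 replicate 1. USP18, the protease that removes ISG15 and restrains the receptor, was at 4.85, 4.85 and 6.44 CPM against 5.96, 5.39 and 5.04 CPM, with a 95% interval of the log2 fold change from -0.28 to 0.34. Of the 50-base words of its main transcript, 27% also occur in other annotated genes, mostly USP41.

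Among the small IFI genes, IFI6, which guards the endoplasmic reticulum membrane, was at 1.95, 2.15 and 2.21 CPM in the vector and at 5.28, 5.44 and 6.80 CPM in the shMETTL3 libraries. It rose 2.78-fold (log2 fold change 1.46, standard error 0.18, adjusted p = 3.99e-08). Of the 50-base words of its main transcript, 21.9% also occur in other annotated genes, mostly LINC02574 on the same strand. IFI35 was at 13.2, 11.7 and 13.7 CPM against 9.43, 10.5 and 8.94 CPM and fell by 0.42 (standard error 0.11, adjusted p = 0.0011). IFI27 had 9, 12 and 8 counts against 22, 27 and 10 counts, with overlapping groups. Its adjusted p of 0.0374 was lost under 7 of 13 alternatives, among them the fits without vector replicate 1 or 3 and without shMETTL3 replicate 1 or 2. IFI44 had 7 to 9 counts against 9 to 19 counts (adjusted p = 0.23). IFI44L had 3, 1 and 1 counts against 12, 12 and 5 counts, at least 2.89-fold higher against the floor, and was not tested.

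ISG20, an exonuclease that degrades single-stranded RNA, had the largest fall of the list. It was at 23.4, 27.4 and 26.3 CPM in the vector and at 6.21, 6.63 and 7.81 CPM in the shMETTL3 libraries, which is 26.8% of the vector level (log2 fold change -1.91, standard error 0.10, adjusted p = 2.18e-15). MX1, a GTPase that traps viral nucleocapsids, had 10, 9 and 10 counts against 25, 28 and 18 counts and rose by 1.16 (standard error 0.33, adjusted p = 0.00311). Its neighbour MX2 had 1 to 4 counts in each library.

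CMPK2, a mitochondrial nucleotide kinase, was at 2.01, 2.09 and 1.90 CPM against 2.80, 3.54 and 4.28 CPM and rose by 0.81 (standard error 0.21, adjusted p = 0.00114). RSAD2 (viperin), which starts beside CMPK2 on the other strand, had 0, 0 and 1 counts against 5, 10 and 4 counts, at least 1.9-fold higher against the floor. XAF1, a promoter of apoptosis, had 1 count in all 6 libraries together. BST2 (tetherin), which holds budding virus at the cell surface, had 1, 7 and 12 counts against 13, 22 and 15 counts, with overlapping CPM. Its log2 fold change of 1.19 (adjusted p = 0.0295) ran from 0.64 to 1.93 over the alternatives, and the call was lost with DESeq2 and without vector replicate 1 or 2 or shMETTL3 replicate 2 or 3.

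SAMD9 and SAMD9L, which restrict poxviruses, are neighbours on chromosome 7 and moved in opposite directions. SAMD9 was at 9.42, 8.98 and 7.54 CPM in the vector and at 6.21, 6.83 and 6.74 CPM in the shMETTL3 libraries and fell by 0.39 (standard error 0.13, adjusted p = 0.00764), a call lost with scaling by library size alone. SAMD9L was at 0.891, 1.02 and 0.797 CPM against 1.97, 1.25 and 2.65 CPM and rose by 1.08 (standard error 0.31, adjusted p = 0.0029).

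DTX3L and PARP9, which form a ubiquitin ligase with ADP-ribosylation activity, changed by little. DTX3L was at 24.8, 23.7 and 27.5 CPM against 31.8, 33.3 and 30.4 CPM and rose by 0.33 (adjusted p = 0.000286). PARP9 was at 24.3, 24.4 and 22.0 CPM against 27.5, 27.0 and 25.5 CPM, with a log2 fold change of 0.18 (adjusted p = 0.0353), a call lost with DESeq2, without a filter, and without vector replicate 3 or shMETTL3 replicate 1 or 2. DDX60, a helicase linked to RIG-I signalling, was at 2.82 CPM on average in the vector and 3.66 CPM in the shMETTL3 libraries (adjusted p = 0.0625), and TRIM21, a cytosolic antibody receptor, at 14 and 15.8 CPM (adjusted p = 0.0888).

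Levels were also compared between genes, as CPM per kb of the main GENCODE transcript. In the vector libraries, OAS1 had the highest level of the 48 genes, with 99.9 CPM per kb, followed by IFITM2 with 78.8, IRF3 with 48.3, ADAR with 44.3 and MAVS with 23.3. In the shMETTL3 libraries, IFITM2 led with 90.3, followed by ADAR with 50.5, OAS1 with 40.0, IRF3 with 31.3, MAVS with 21.1 and UBE2L6 with 19.9 CPM per kb. The summed level of the 34 effectors was 486 to 510 CPM in the vector and 399 to 417 CPM in the shMETTL3 libraries. More effectors rose than fell, yet the sum was lower in each shMETTL3 library. The OAS family alone summed to 247 to 257 CPM in the vector and 111 to 121 CPM in the shMETTL3 libraries. By contrast, the IFIT genes summed to 11.6 to 15.8 CPM in the vector and 29.7 to 30.3 CPM in the shMETTL3 libraries, and the 5 genes of the ISG15 system to 19.6 to 21.7 CPM and 41.9 to 42.7 CPM. Most of the latter rise was UBE2L6, from a mean of 5.53 to 24.2 CPM. HERC5 rose as well, and ISG15, USP18 and HERC6 were not called.

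**Figure D3:**
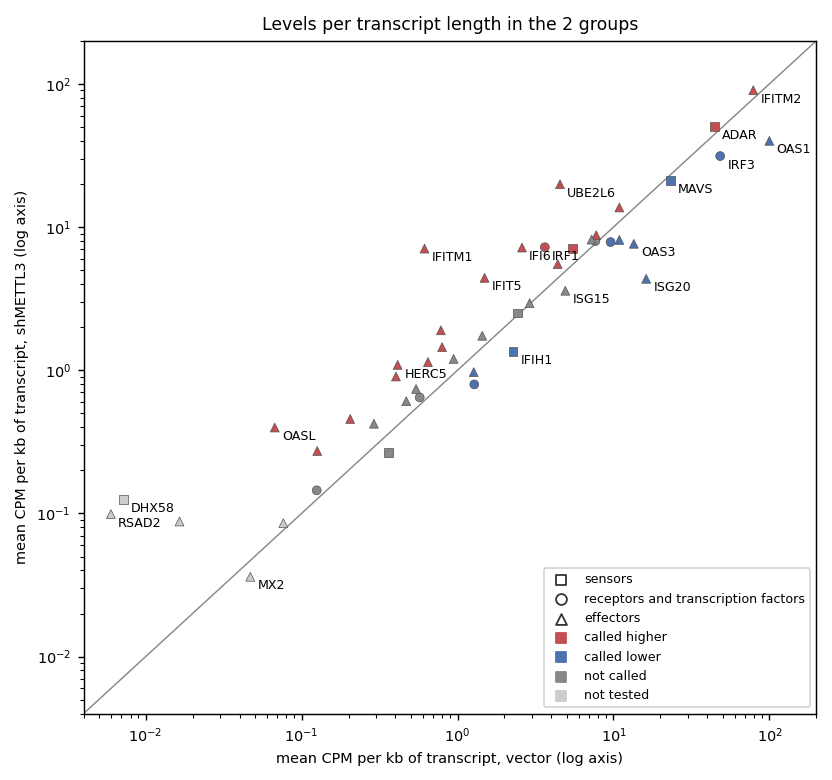
Mean level of each gene in CPM per kb of transcript, vector on the x axis and shMETTL3 on the y axis (both log axes), with squares for sensors, circles for receptors and transcription factors and triangles for effectors. The diagonal marks equal levels. XAF1, without a count in the vector libraries, is not drawn. OAS1 falls from 99.9 to 40.0 and IFITM1 rises from 0.614 to 7.07 CPM per kb.

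Since many of these genes stand side by side in the genome, adjacent members were also compared within each library, as the log2 ratio of their counts, which does not depend on the scaling between libraries. This comparison was added after the values were seen. Of 14 pairs of neighbours less than 200 kb apart, 9 had a mean of at least 10 counts for both genes. The groups did not overlap in this ratio for 8 of the 9 pairs, some of which share a gene. Among all 11253 pairs of adjacent tested genes under the same limits, the groups did not overlap for 66.2%. IFITM1, a member of 2 of the 9 pairs, met the minimum only with the shMETTL3 libraries, and without it the groups were apart for 6 of 7 pairs. A two-sided exact permutation test gave p = 0.1 for each of the 8, the smallest that 3 libraries against 3 allow, or 0.113 adjusted over the 9 pairs.

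The log2 ratio of IFIT5 to IFIT1 was 0.53, 0.47 and 0.74 in the vector and 1.82, 1.76 and 1.77 in the shMETTL3 libraries, a difference of 1.2. The log2 ratio of OAS3 to OAS1 was -0.87, -0.84 and -0.89 in the vector and -0.25, -0.50 and -0.36 in the shMETTL3 libraries, so that OAS1 fell more than OAS3 within the same libraries. For SAMD9L to SAMD9 it was -3.40, -3.14 and -3.24 against -1.66, -2.45 and -1.35. HERC5 against HERC6 went from a mean of -1.93 to -0.79, and IFITM1 against IFITM2 from -7.67 to -4.26. The exception was DTX3L to PARP9, which overlap at their starts on opposite strands, with a mean log2 ratio of 0.10 in the vector and 0.26 in the shMETTL3 libraries (exact permutation test, p = 0.4).

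**Figure D4:**
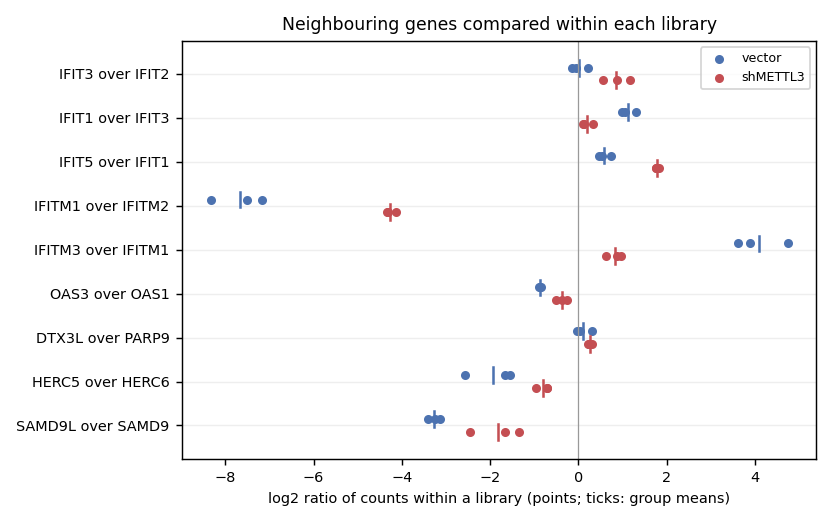
Log2 ratio of the counts of 2 neighbouring genes within each library, for the 9 pairs with enough counts, vector in blue and shMETTL3 in red, with ticks at the group means. The groups are apart for each pair except DTX3L over PARP9.

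The promoters of the genes were read from RefSeq windows of GRCh38.p14, from 250 bases before to 50 after a transcription start. Such a window was found for 38 of the 48 genes, DDX58 among them under its current name RIGI. The windows were searched for the core of the ISRE, GAAANNGAAA on either strand, where N is any base, and for the GAS element TTCNNNGAA, which reads the same on both strands and is bound by STAT dimers. The ISRE core was found in 24 of the 38 genes, or 63.2%, against 3.78% of the 10635 tested genes with a window and 3.57% of all 35116 windows. None of the 4 receptor and transcription factor genes with a window held it, against 3 of 6 sensors and 21 of 28 effectors. The GAS element was found in 10 of the 38 genes, against 8.72% of the tested genes, and 7 overlaps between matches of the ISRE core and of GAS were counted.

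A match to the ISRE core went with changes in both directions. Of the 24 genes with a match, 12 were higher, 4 lower and 6 not called, and RSAD2 and IFI44L were not tested. Over all tested genes, 33.7% were higher and 32.9% lower. Of the 14 genes without one, 5 were higher, 4 lower and 4 not called, and XAF1 was not tested. The median log2 fold change of the tested genes was 0.35 with a match and 0.16 without. Of the 17 genes with a match that passed the filter in the vector libraries alone, 8 were higher and 4 lower, with a median of 0.33. The following stretches upstream of the start belong to the genes that rose or fell most among the tested genes with a match. They run 5′ to 3′ on the strand of the gene, with each ISRE core in capitals. A further match in IFIT5 and in IFITM1 spans the start and is not printed in capitals. IFI6, HERC5, IFIT5 and IFITM1 rose, and ISG20, OAS3 and IFIH1 fell.
IFI6, chr1:27672193-27672358, minus strand: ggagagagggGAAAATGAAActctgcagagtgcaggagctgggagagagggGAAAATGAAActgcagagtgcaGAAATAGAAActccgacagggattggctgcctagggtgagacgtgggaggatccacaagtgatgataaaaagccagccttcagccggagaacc
HERC5, chr4:88456984-88457118, plus strand: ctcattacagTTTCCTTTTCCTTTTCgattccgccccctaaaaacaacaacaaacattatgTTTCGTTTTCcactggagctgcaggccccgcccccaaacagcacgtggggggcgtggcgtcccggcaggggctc
IFIT5, chr10:89414438-89414567, plus strand: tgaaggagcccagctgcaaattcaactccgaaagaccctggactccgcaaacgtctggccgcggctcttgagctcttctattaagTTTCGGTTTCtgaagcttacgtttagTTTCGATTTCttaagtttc
IFITM1, chr11:313910-314039, plus strand: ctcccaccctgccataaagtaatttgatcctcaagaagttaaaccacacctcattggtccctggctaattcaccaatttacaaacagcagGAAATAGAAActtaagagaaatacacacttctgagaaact
ISG20, chr15:88638886-88639015, plus strand: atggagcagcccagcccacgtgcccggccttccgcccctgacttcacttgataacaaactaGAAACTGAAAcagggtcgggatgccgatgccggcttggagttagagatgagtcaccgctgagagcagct
OAS3, chr12:112938321-112938473, plus strand: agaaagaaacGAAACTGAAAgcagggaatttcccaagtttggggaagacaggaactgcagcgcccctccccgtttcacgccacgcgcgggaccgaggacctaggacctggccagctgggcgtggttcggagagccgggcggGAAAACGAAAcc
IFIH1, chr2:162318685-162318853, minus strand: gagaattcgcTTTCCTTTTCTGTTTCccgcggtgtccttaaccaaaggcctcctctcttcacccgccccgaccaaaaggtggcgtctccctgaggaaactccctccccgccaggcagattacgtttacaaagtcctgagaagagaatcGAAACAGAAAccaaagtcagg

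IFI6 and IFIH1 each hold 3 matches upstream of the start, and IFI6 rose while IFIH1 fell. UBE2L6 rose 4.38-fold with no match in either of its windows, shown here for the first of them on the genome, and OAS1 fell with none.
UBE2L6, chr11:57567673-57567802, minus strand: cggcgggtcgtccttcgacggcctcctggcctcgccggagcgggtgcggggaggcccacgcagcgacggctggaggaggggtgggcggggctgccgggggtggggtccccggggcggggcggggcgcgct
OAS1, chr12:112906832-112906961, plus strand: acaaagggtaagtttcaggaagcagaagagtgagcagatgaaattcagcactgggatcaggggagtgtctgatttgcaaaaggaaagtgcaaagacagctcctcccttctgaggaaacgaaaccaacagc
A match only says that these letters stand in the window, and a missing one that they do not. The OAS1 stretch holds gaaacgaaa near its end, where the GAAA runs stand closer together than in the searched pattern. IFI35, also without a match, holds gaaatgaaa. Genes without a match to this pattern can therefore still hold a related element.

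**Figure D5:**
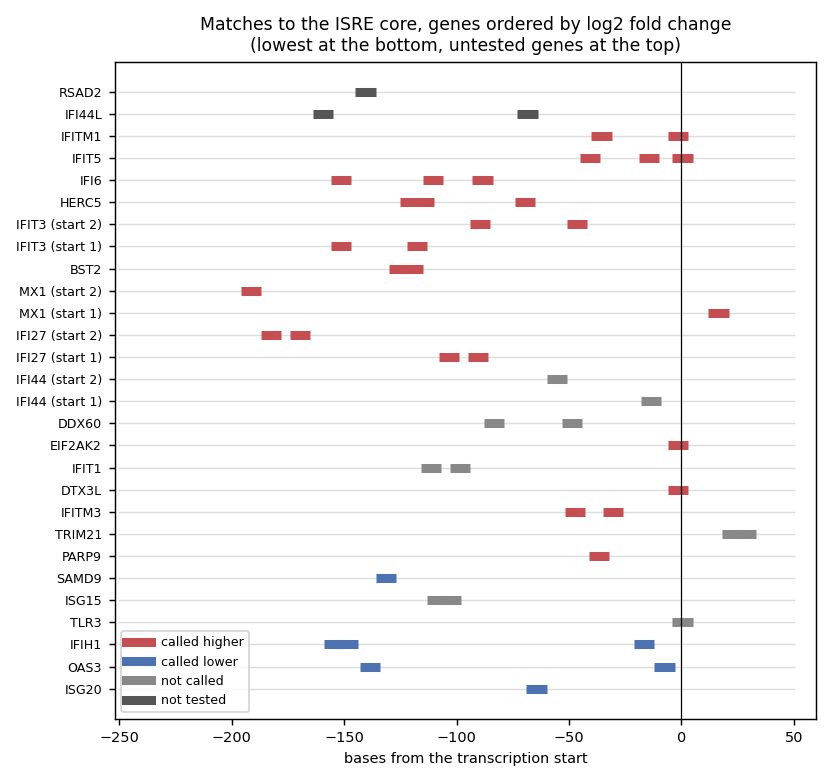
Positions of the ISRE core matches in the promoter windows of the 24 genes that hold one, in bases from the transcription start, coloured by the call. Genes are ordered by log2 fold change from ISG20 at the bottom to IFITM1, with the untested RSAD2 and IFI44L at the top. Matches are seen along the whole order.

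The transcripts were also searched for GGACT, a common form of the sequence that METTL3 methylates. The main transcripts of the 48 genes held a median of 0.99 GGACT per kb, against 0.919 per kb over 13534 tested genes with a main transcript. The median was 0.999 per kb for the 19 genes that were higher, 1.29 for the 10 that were lower and 0.988 for the 13 that were not called. Among the largest changes, IFITM1 held none, UBE2L6 had 1.64, ISG20 1.9 and OAS1 1.23 per kb. m6A itself was not measured in these libraries.

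Beside the 48 genes, 66 other genes of the pathway were looked up. Of these, 56 were tested, 28 were higher and 11 lower, and 69.6% were changed, near the 66.6% of all genes. The largest rises were of IFI16, a nuclear DNA sensor, and of the guanylate-binding proteins GBP2, GBP1 and GBP3, which attack the membranes around intracellular microbes. IFI16 was at 0.613, 0.599 and 0.613 CPM in the vector and at 4.09, 4.19 and 4.41 CPM in the shMETTL3 libraries (log2 fold change 2.78, adjusted p = 6.49e-11). GBP2 was at 11.1, 10.3 and 8.76 CPM against 54.4, 55.5 and 58.7 CPM (2.48, adjusted p = 6.43e-20). GBP1 and GBP3 had log2 fold changes of 2.25 and 2.1. GBP1, with 19, 7 and 5 counts in the vector, passed the count filter only with the help of the shMETTL3 libraries. The same holds for LGALS9 among the 28 higher genes.

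Among the genes that fell were EPSTI1, an interferon-induced gene, TICAM1, the adaptor of TLR3, and SP100, a nuclear body protein. EPSTI1 had a log2 fold change of -2.29 from 37, 23 and 14 counts against 11, 3 and 2 counts (adjusted p = 7.7e-05). It passed the count filter only with the help of the vector libraries. TICAM1 was at 15.8, 15.1 and 17.5 CPM against 8.60, 8.98 and 9.07 CPM and fell by 0.86 (adjusted p = 1.89e-08). SP100 was at 23.4, 23.2 and 21.1 CPM against 15.4, 16.3 and 17.7 CPM and fell by 0.46 on the log2 scale.

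Of the 8 interferon ligand genes looked up, only IFNE had enough counts to be tested. Among the others, IFNB1, IFNA2, IFNL2 and IFNL3 had no count in any library, where a count of 0 in a library allows up to 0.15 to 0.189 CPM. IFNK had 1 count in all and IFNL1 had 3. IFNA1 had 0, 0 and 2 counts with the vector against 3, 6 and 2 after knockdown, too few for a test. IFNE, an epithelial type I interferon, was at 1.34, 1.98 and 1.84 CPM against 2.28, 1.95 and 1.45 CPM, with overlapping groups and a 95% interval of the log2 fold change from -0.36 to 0.68 (adjusted p = 0.586). Secreted interferon protein was not measured.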

How the data were processed

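The deposited table holds raw counts per gene symbol for 3 vector and 3 shMETTL3 libraries of A549 cells. According to the submitters' processing notes, the authors trimmed reads with cutadapt 3.0, mapped them to hg19 with HISAT2 2.2.1 and made these counts with HTSeq 0.13.5. The paper's methods name other versions of HISAT2 and htseq. The annotation and the strand setting are not given in the sources used here.

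Groups and replicate numbers came from the sample titles. Counts were scaled by TMM and filtered by filterByExpr, and the remaining 15125 of 57781 rows were fitted with edgeR 4.0.16 (glmQLFit, glmQLFTest, group as the only term) in R 4.3.3, with Benjamini-Hochberg adjustment over all of them. A gene was called at an adjusted p under 0.05. Each standard error was worked out from the coefficient, before shrinkage, and its F value. The alternatives were RLE, upper-quartile and library-size scaling, a replicate block, DESeq2 1.42.0, limma-voom (limma 3.58.1), a minimum of 10 counts per library or none, each library left out in turn, and a log2 fold change of at least 1. The code was tested on simulated data.

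The members and lists were chosen with earlier results of these data known. Every one of the 48 genes is named, and of the other pathway genes the 4 largest rises and falls among called genes without overlap, and the interferon ligands. Some results that this rule names are not reported here. Positions, transcript lengths and overlaps are from GENCODE on GRCh37, the build of the counts, and promoters from RefSeq on GRCh38.p14. Replicate pairs differed by more than sampling noise, with a chi-square per degree of freedom between 2.75 and 7.27. Limits from a count of 0 and folds against the floor cover counting error only.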

Additional observations from a re-analysis of the deposited data

How the results depend on the processing

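Of the 29 interferon genes called, 20 kept their direction and their call under every alternative that tested them and keeps the threshold on the adjusted p alone. OASL, MX1 and IFITM1, among these 20, were not tested with at least 10 counts in every library. MAVS, STAT2, IRF7, IFITM2, IFITM3, IFI27, BST2, SAMD9 and PARP9 lost the call under at least 1. Of the 13 genes not called, 8 passed under at least 1 alternative, namely TLR3, IFNAR1, IFIT1, IFIT2, ISG15, HERC6, DDX60 and TRIM21. With a log2 fold change of at least 1 also required, 12 genes remained called, 10 higher and 2 lower. All of them are effectors, a role that includes the OAS enzymes here. Against these stood 0 sensors and 0 receptors or transcription factors, with IRF1 just under the cut. Of the other pathway genes 11 remained, and of all genes 2668 (1545 higher, 1123 lower). When only library size was used for scaling, 6 genes were lower, among them 1 sensor and 1 transcription factor, and 2 receptors or transcription factors were higher. The median log2 fold change of the tested genes was 0.28 with upper-quartile scaling, 0.43 with library size alone and 0.20 with at least 10 counts in every library. The shifts with the scalings follow the shift of the median of all genes, 0.023 with upper-quartile scaling and 0.17 with library size alone, and the stricter filter tests fewer genes.

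Leaving out each library in turn gave 26 to 31 called genes and a median of 0.20 to 0.31, with 1 to 3 sensors lower. Of all genes, the same fits called 9410 to 10072. Without shMETTL3 replicate 1 or 3, 1 sensor was lower, since MAVS lost its call. Direction turned for DDX58 (-0.057 without vector replicate 2, and up to 0.17 over the libraries left out), MAVS (0.033 with library size alone), IFNAR1 (-0.0065 without vector replicate 3, and up to 0.12 over the libraries left out) and USP18 (-0.048 and -0.043 without vector replicate 1 or 2, and -0.036 without shMETTL3 replicate 1, and up to 0.17 over the libraries left out). With library size alone DDX58, IFNAR1 and USP18 were at 0.22, 0.23 and 0.21. DESeq2 called 25 of the genes, and 9234 of all genes, against 10067 in the main fit.

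The groups share replicate numbers. The deviations from the group mean correlated by 0.0466, -0.00236 and 0.0329 between libraries of the same number. Between libraries of different numbers the correlations ran from -0.0541 to 0.0203. All of these are small, and they cannot show whether libraries of the same number were handled together. With the replicate block, 29 genes were called, 19 higher and 10 lower, and 10111 of all genes, against 10067 without it.

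A gene with under 10 counts per library can show only a large change at these depths. No group held more than 3 libraries, so that a single library far from the others was not looked for.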
